A study of Mus musculus with 6 samples.

Results

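The transcription factor p53 (gene symbol Trp53) and 9 of its target genes were followed in medullary thymic epithelial cells (mTECs) of Jmjd3-deficient and control mice. The genes were chosen by name, with earlier results of these data known. All 10 (Trp53, Mdm2, Ccng1, Cdkn1a, Bax, Bbc3, Pmaip1, Trp53inp1, Sesn2 and Gdf15) were found among the 20443 genes of the deposited tables. mTECs are the thymic stromal cells that show peripheral self-antigens to developing T cells, and Jmjd3 (gene symbol Kdm6b) removes methyl groups from histone H3 at lysine 27. The Jmjd3-deficient group (cKO) comprised mTECs of 3 mice with floxed Jmjd3 alleles and Foxn1-cre, a driver of the thymic epithelium of both cortex and medulla (libraries cKO_262, cKO_263 and cKO_265). The control group (Con) comprised mTECs of 3 mice labelled as controls, which by the protocol text carried the floxed alleles without Cre (Con_253, Con_261 and Con_264). All 6 mice were C57BL/6 and 4 weeks old, and each library came from a mouse with its own number. A difference between the groups cannot be told apart from an effect of the Cre construct, which the controls lacked.

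p53 is held at a low protein level by Mdm2, an E3 ubiquitin ligase that is itself a p53 target, and it is stabilised mainly after translation when DNA damage or other stress is sensed. It then activates genes that act on the cell cycle (Cdkn1a, Ccng1) and genes that start mitochondrial apoptosis (Bax, Bbc3, Pmaip1). Other targets act in metabolic stress and autophagy (Sesn2, Trp53inp1). In thymic epithelium, loss of p53 in mice has been described to disturb the medullary compartment. The transcript level of Trp53 is therefore one readout and the levels of its targets another, and both were read here from the RNA alone.

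Values were FPKM (fragments per kilobase of transcript, relative to the mapped fragments of a library) as deposited. Levels can be compared between genes only roughly, because the RNA was amplified and such amplification is not even across transcripts. The tables hold no counts, and the depth of each library is unknown. The summed FPKM of a library was 582835 to 641060 in cKO and 461152 to 543156 in Con. Kdm6b was at 8.67 to 11.6 FPKM in cKO and at 9.998 to 18.1 FPKM in Con (limma adjusted p = 0.418), and its summed value does not check the labels, because the deleted part of the gene was not given. On the first principal component of the tested genes cKO_265 lay at 53.02 and the other 5 libraries between -22.7 and 7.42. The Y-linked gene Eif2s3y reached 0.0409 FPKM at most in the 3 cKO libraries, against 7.88 FPKM in Con_253 and 0 in Con_261 and Con_264. By this gene only Con_253 looked male, so the groups may not be matched for sex. The labels do not give the sex of the mice, and its part in the differences was not tested. mTEC markers were present in every library, with the 11 found of 12 listed (among them Cd40, Aire, Krt14 and Cd80) summing to 8084 to 9653 FPKM in cKO and 7909 to 9084 FPKM in Con.

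None of the 10 genes passed the threshold of an adjusted p under 0.05 in the comparison of cKO with Con (limma on log2(FPKM + 1), Benjamini-Hochberg over 15720 tested genes, 2-sided). Over all tested genes 12 passed, or 0.0763%. The 10 genes passed the filter of a mean of at least 0.5 FPKM by a wide margin. Ccng1 (1.94-fold), Cdkn1a (1.64-fold) and Trp53inp1 (1.33-fold) had higher FPKM in every cKO library than in any Con library. Groups were separated in this way for 3 of the 10 genes, against 9.59% of all tested genes in that direction, and 0 of the 10 were separated in the other direction, against 11.9% of all tested genes. The same 3 genes had an unadjusted p under 0.05 (limma), a level reached in that direction by 6.81% of all tested genes, and 0 of the 10 reached it in the other direction, against 7.82%. In log2 fold change, 9 of the 10 were positive, against 45.3% of all tested genes, and the median was 0.19 for the 10 and -0.04 for all tested genes. Since the 10 genes were chosen with earlier results known, these shares are a description and not a test of enrichment. The median of the 10 was 0.058 under quantile normalization and 0.28 under median centring, where that of all tested genes was 0.0083 and 0.046. With limma's arrayWeights, which weights libraries by their estimated quality, 4 of the 10 genes passed (Ccng1, Cdkn1a, Bax and Trp53inp1), in a fit that called 3025 of 15720 genes (19.2%) and gave Con_261 a weight of 8.72 and cKO_265 a weight of 0.263.

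**Figure D1:**
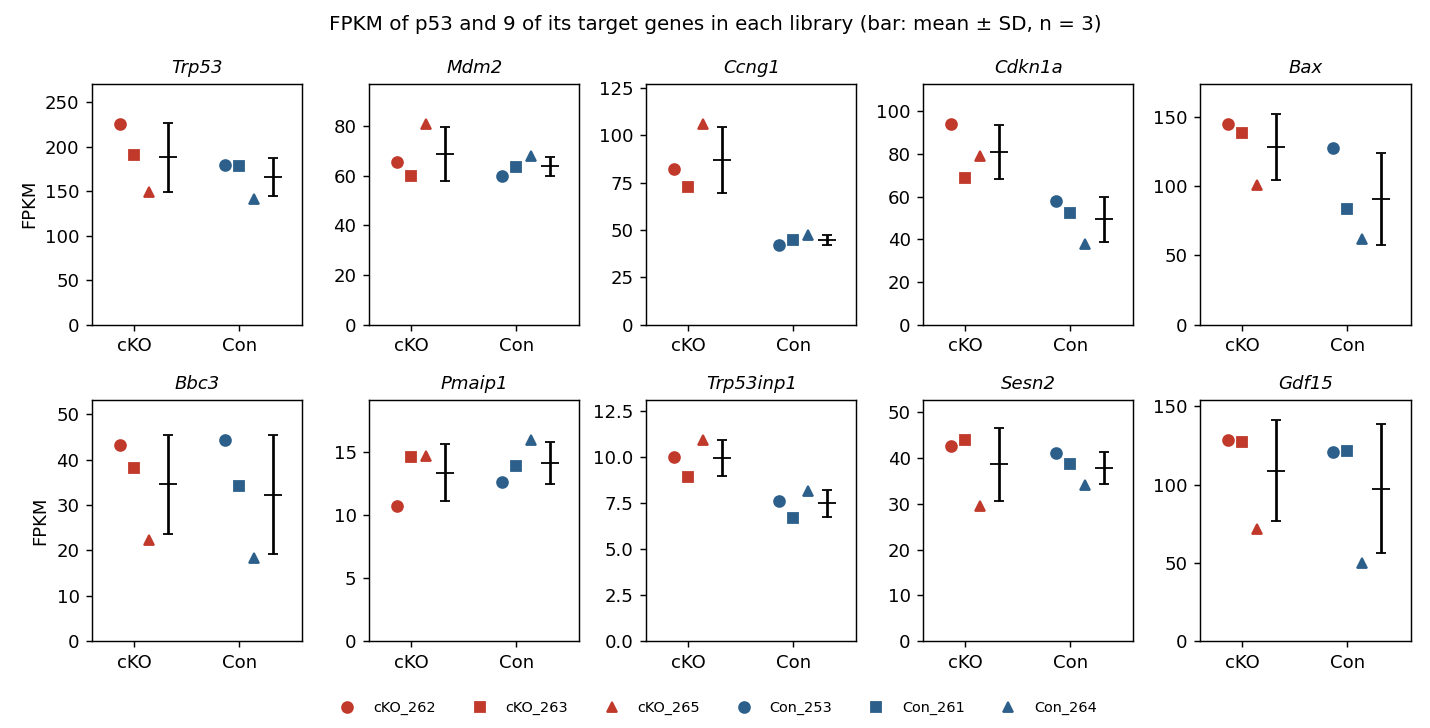
FPKM of the 10 genes in each library (vertical axes from 0, one panel per gene), with cKO libraries in red on the left, Con libraries in blue on the right, and the mean ± SD of 3 libraries as bars. Ccng1, Cdkn1a and Trp53inp1 are the genes whose cKO points all lie above all Con points, while Bbc3 and Gdf15 vary more within each group (18.3 to 44.3 FPKM and 49.8 to 128 FPKM) than between the group means.

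The promoters of Ccng1 and Cdkn1a, the 2 genes with the largest differences, are shown beside that of Mdm2, whose level hardly differed. They run from 250 bases before to 50 bases after an annotated start site (RefSeq, GRCm38.p6). Capitals mark matches to the p53 decamer, the 10-base unit of the p53 consensus site, with its C and G kept and at most 1 mismatch elsewhere. The decamer is its own reverse complement, so both strands were read at once.
Ccng1, chr11:40755237-40755536, minus strand: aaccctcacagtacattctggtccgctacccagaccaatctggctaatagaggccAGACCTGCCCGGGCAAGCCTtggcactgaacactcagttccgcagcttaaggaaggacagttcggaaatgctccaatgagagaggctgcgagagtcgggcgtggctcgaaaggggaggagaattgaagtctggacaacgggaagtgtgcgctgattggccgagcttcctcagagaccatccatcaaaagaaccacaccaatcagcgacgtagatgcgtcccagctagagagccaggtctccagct
Cdkn1a upstream start, chr17:29090729-29091028, plus strand: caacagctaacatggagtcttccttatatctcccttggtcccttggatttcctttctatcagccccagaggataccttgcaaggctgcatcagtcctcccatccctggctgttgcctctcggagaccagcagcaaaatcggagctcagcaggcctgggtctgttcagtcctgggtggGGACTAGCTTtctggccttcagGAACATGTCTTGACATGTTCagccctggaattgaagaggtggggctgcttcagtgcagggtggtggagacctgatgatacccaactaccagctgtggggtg
Mdm2, chr10:117710709-117711008, minus strand: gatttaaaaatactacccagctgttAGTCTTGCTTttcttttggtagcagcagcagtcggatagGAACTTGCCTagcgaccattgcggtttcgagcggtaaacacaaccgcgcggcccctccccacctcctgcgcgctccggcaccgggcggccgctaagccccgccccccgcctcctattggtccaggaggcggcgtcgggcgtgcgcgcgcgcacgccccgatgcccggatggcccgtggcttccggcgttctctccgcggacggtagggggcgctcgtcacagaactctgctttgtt
In Ccng1, 2 decamers lay side by side from 195 bases before the start. In Cdkn1a, 2 lay side by side from 51 bases before the start, with another from 73 bases before it. In Mdm2 the 2 decamers began 225 and 186 bases before the start and did not touch. RefSeq promoters were read for 8 of the 10 genes (12 promoters), and none was read for Pmaip1 or Trp53inp1. Of the 12 promoters, 2 held decamers side by side, as did 67 of all 32851 promoters (0.204%). Single decamers of this kind are common and occurred in 7 of the 12 and in 50.9% of all promoters. The promoter at the downstream start of Cdkn1a (chr17:29093519-29093818) held 0 such decamers. The match is a description of the letters in these windows. The promoters shown were picked by the differences of their genes, and a link between decamers and RNA levels was not tested. Sites outside the windows were not read, and decamers with bases between them were not counted as side by side. The single row of Cdkn1a in the tables covers both of its annotated start sites, and the transcripts of each were not told apart.

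Trp53 (chromosome 11 from 69580359 to 69591873, mm10, protein coding) had the highest level of the 10 genes in both groups. It was at 226, 190.2 and 148 FPKM in libraries cKO_262, cKO_263 and cKO_265, against 179, 178 and 141 FPKM in libraries Con_253, Con_261 and Con_264. The groups overlapped, with the lowest library of each (cKO_265 and Con_264) well below its 2 companions. The log2 fold change was 0.17 (SE 0.19, 95% interval -0.25 to 0.59, limma adjusted p = 0.721). It was 0.03 without cKO_262, 0.06 without Con_264 and 0.33 without cKO_265, and its sign turned under quantile normalization (-0.08). The tables hold 2 rows for Trp53 at 1 locus, and the transcripts behind each row were not given. The first row carried 70.2% to 86.9% of the gene's sum in cKO and 75.8% to 82.8% in Con. Read alone, the first row gave a log2 fold change of 0.13 (SE 0.17) and the second 0.22 (SE 0.37), neither of which passed (limma adjusted p = 0.762 and 0.826).

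Mdm2 (chromosome 10 from 117688905 to 117710716), the inhibitor of p53, was at 65.3, 60.0 and 80.8 FPKM in libraries cKO_262, cKO_263 and cKO_265, against 60.0, 63.4 and 67.8 FPKM in libraries Con_253, Con_261 and Con_264. cKO_265 was the highest of all 6 libraries, and the other 2 cKO libraries lay within the range of the controls. The log2 fold change was 0.10 (SE 0.15, 95% interval -0.25 to 0.44, limma adjusted p = 0.812). It was -0.02 without cKO_265 and -0.03 under quantile normalization.

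Ccng1 (chromosome 11 from 40748552 to 40755286) encodes cyclin G1, which binds a regulatory subunit of the phosphatase PP2A and feeds back on Mdm2. It was at 82.3, 72.6 and 106 FPKM in libraries cKO_262, cKO_263 and cKO_265, against 42.3, 44.7 and 47.2 FPKM in libraries Con_253, Con_261 and Con_264. The controls lay close together and the lowest cKO library was well above them. The mean was 87.0 ± 17.2 FPKM in cKO and 44.7 ± 2.45 FPKM in Con (SD, n = 3 each). The difference of 0.93 in log2 fold change (SE 0.16, 95% interval 0.55 to 1.303) ranked 55 of 15720 genes by p and did not pass (limma unadjusted p = 0.000384, adjusted p = 0.107). An exact permutation test on this gene alone gave p = 0.1 (2-sided), the smallest value that 3 against 3 libraries allow. With 1 library left out the difference stayed between 0.78 and 1.05.

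Cdkn1a (chromosome 17 from 29090986 to 29100722) encodes p21, the inhibitor of cyclin-dependent kinases through which p53 stops the cell cycle. It was at 94.2, 69.0 and 79.3 FPKM in libraries cKO_262, cKO_263 and cKO_265, against 58.1, 52.3 and 37.7 FPKM in libraries Con_253, Con_261 and Con_264. The groups did not overlap, and cKO_263 and Con_253 lay closest to each other. The mean was 80.8 ± 12.7 FPKM in cKO and 49.4 ± 10.5 FPKM in Con (SD, n = 3 each). The difference was 0.71 in log2 fold change (SE 0.19, 95% interval 0.27 to 1.15) and did not pass (limma unadjusted p = 0.0057, adjusted p = 0.174, exact permutation p = 0.1). It was 0.53 without Con_264 and 0.84 without Con_253.

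The 3 apoptosis genes differed among themselves. Bax (chromosome 7 from 45461695 to 45466898), which forms pores in the outer mitochondrial membrane, was at 145, 138 and 101 FPKM in libraries cKO_262, cKO_263 and cKO_265, against 127, 83.8 and 61.7 FPKM in libraries Con_253, Con_261 and Con_264. The groups overlapped through Con_253, which was above cKO_265. This gave a log2 fold change of 0.53 (SE 0.26, 95% interval -0.06 to 1.13, limma adjusted p = 0.391). Without Con_253 it was 0.81 (adjusted p = 0.240), and without Con_264 it was 0.29 (adjusted p = 0.669).

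Bbc3 and Pmaip1 encode PUMA and NOXA, BH3-only proteins that act upstream of Bax. Bbc3 (chromosome 7 from 16309583 to 16318334) was at 43.2, 38.2 and 22.3 FPKM in libraries cKO_262, cKO_263 and cKO_265, against 44.3, 34.3 and 18.3 FPKM in libraries Con_253, Con_261 and Con_264. Both groups spanned almost the same range. Their difference in log2 fold change was 0.13 (SE 0.34, 95% interval -0.64 to 0.90, limma adjusted p = 0.898), and it was -0.22 without Con_264 and -0.05 without cKO_262. Pmaip1 (chromosome 18 from 66458604 to 66465558) was at 10.8, 14.7 and 14.7 FPKM in libraries cKO_262, cKO_263 and cKO_265, against 12.6, 13.9 and 16.0 FPKM in libraries Con_253, Con_261 and Con_264. It was the 1 gene of the 10 with a negative log2 fold change (-0.08, SE 0.18, 95% interval -0.48 to 0.32, limma adjusted p = 0.868), which was 0.05 without cKO_262.

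Trp53inp1 (chromosome 4 from 11156441 to 11174377) encodes a stress-induced partner of p53 that also acts in autophagy, and it had the lowest level of the 10 genes. It was at 10.03, 8.95 and 10.9 FPKM in libraries cKO_262, cKO_263 and cKO_265, against 7.65, 6.72 and 8.16 FPKM in libraries Con_253, Con_261 and Con_264. The groups did not overlap. For the summed value the log2 fold change was 0.37 (SE 0.16, 95% interval 0.01 to 0.73, limma unadjusted p = 0.0475, adjusted p = 0.336). The unadjusted p was 0.0862 without cKO_262, 0.101 without cKO_265, 0.0896 without Con_253 and 0.180 without Con_261 (limma). The value is the sum of 2 rows at 1 locus, whose unadjusted p was 0.145 and 0.373 when each was fitted alone (limma). The second row, the larger one in every library, gave a log2 fold change of only 0.15 (SE 0.16, adjusted p = 0.711), and its groups overlapped. The first row was at 2.06, 0.000853 and 3.90 FPKM in libraries cKO_262, cKO_263 and cKO_265, against 0.00126, 0.000769 and 1.30 FPKM in libraries Con_253, Con_261 and Con_264, so the separation of the summed values in cKO_262 and cKO_265 rested in part on this row.

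Sesn2 (chromosome 4 from 132492807 to 132510456) encodes sestrin 2, which restrains mTORC1 when leucine is short. It was at 42.5, 43.8 and 29.5 FPKM in libraries cKO_262, cKO_263 and cKO_265, against 41.0, 38.6 and 34.1 FPKM in libraries Con_253, Con_261 and Con_264. The cKO libraries held both the highest and the lowest value. The log2 fold change was 0.01 (SE 0.18, 95% interval -0.40 to 0.42, limma adjusted p = 0.987), and it turned without Con_264 (-0.06), cKO_262 (-0.07) or cKO_263 (-0.09).

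Gdf15 (chromosome 8 from 70629394 to 70631635) encodes a secreted cytokine of the TGF-beta superfamily that is induced by p53 and by the integrated stress response. It was at 128, 127 and 71.6 FPKM in libraries cKO_262, cKO_263 and cKO_265, against 121, 122 and 49.8 FPKM in libraries Con_253, Con_261 and Con_264. In each group 2 libraries lay close together and 1 was far lower. As a log2 fold change the difference was 0.22 (SE 0.37, 95% interval -0.61 to 1.05, limma adjusted p = 0.826), and it was -0.20 without Con_264.

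**Figure D2:**
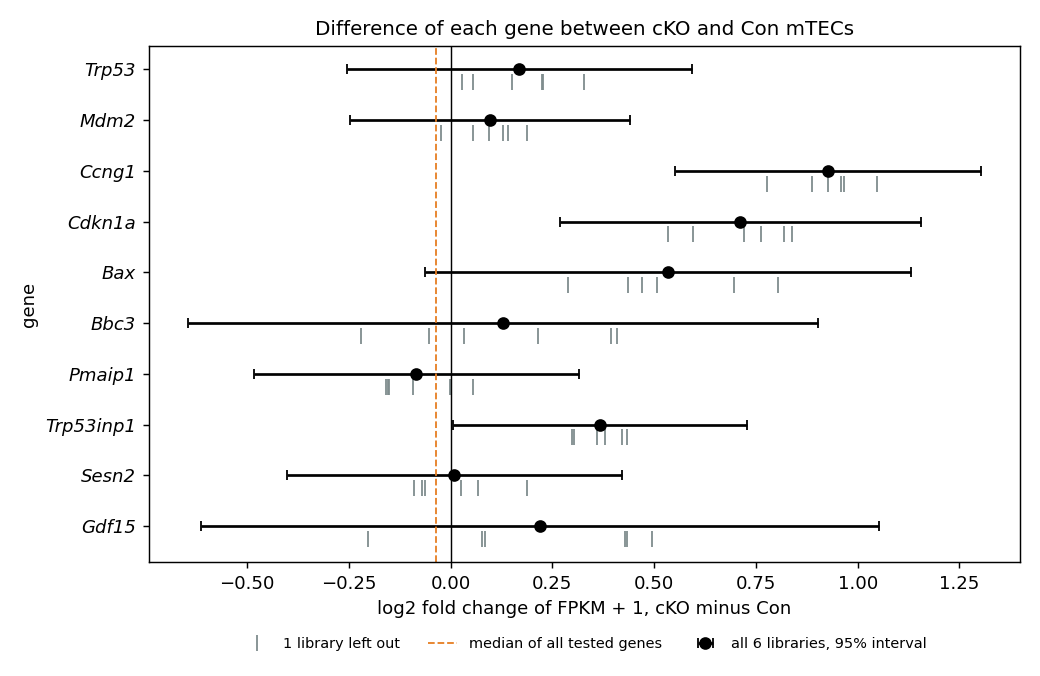
Log2 fold change of FPKM + 1 (horizontal axis, cKO minus Con) of each gene, with its 95% interval from the limma fit as a black bar, the fits with 1 library left out as grey ticks, and the median of all tested genes (-0.04) as a dashed line. Intervals of Ccng1, Cdkn1a and Trp53inp1 lie above 0, those of the other 7 genes include 0, and the grey ticks of Mdm2, Bbc3, Pmaip1, Sesn2 and Gdf15 fall on both sides of 0.

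In the order of mean levels, Trp53 came first and stood apart from the next gene in both groups, and Sesn2, Bbc3, Pmaip1 and Trp53inp1 held the last 4 places in the same order in both groups. In cKO, the order after Trp53 was Bax (128 ± 23.8 FPKM), Gdf15 (109 ± 32.4), Ccng1, Cdkn1a and Mdm2 (68.7 ± 10.8), and each of these overlapped with the next down to Mdm2. In Con, the order after Trp53 was Gdf15 (97.6 ± 41.3 FPKM), Bax (91.0 ± 33.4), Mdm2 (63.7 ± 3.89), Cdkn1a and Ccng1 (SD, n = 3 throughout). There Mdm2 stood above Cdkn1a without overlap, while Cdkn1a and Ccng1 overlapped. Ccng1 thus took place 4 in cKO and place 6 in Con.

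Within the groups, several of the genes were low in the same libraries. Con_264 was the lowest control for 6 of the 10 genes (Trp53, Cdkn1a, Bax, Bbc3, Sesn2 and Gdf15), and it was the lowest control for 40.6% of all tested genes. cKO_265 was the lowest cKO library for 5 of the 10 (Trp53, Bax, Bbc3, Sesn2 and Gdf15), against 41.6% of all tested genes. For Mdm2, Ccng1 and Trp53inp1, in contrast, cKO_265 and Con_264 were each the highest library of their group, and for Pmaip1 the same holds. Relative to the control mean, the median of the 10 genes on the log2 scale was 0.47, 0.28 and 0.13 in libraries cKO_262, cKO_263 and cKO_265, against 0.12, 0.02 and -0.19 in libraries Con_253, Con_261 and Con_264. The lowest cKO library thus lay only just above the highest control by this measure. The 3 genes with separated groups did not share 1 pattern, since Cdkn1a was lowest in Con_264 among the controls and Ccng1 and Trp53inp1 were highest there.

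**Figure D3:**
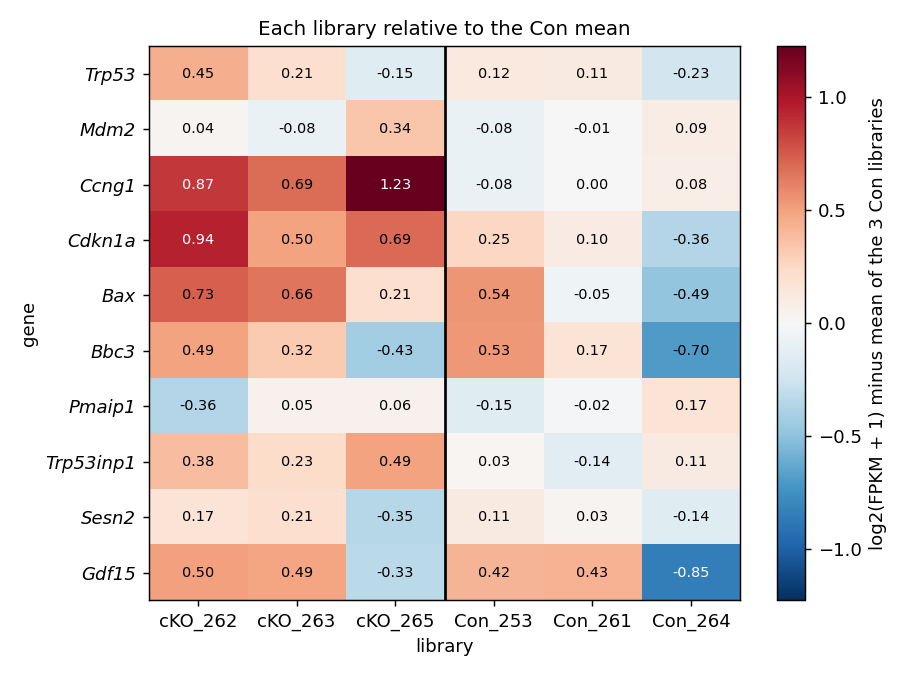
log2(FPKM + 1) of each gene (rows) in each library (columns, cKO left of the line, Con right of it), as the difference from the mean of the 3 Con libraries, in red where higher and in blue where lower. Ccng1 and Cdkn1a are red in all 3 cKO columns (0.69 to 1.23 and 0.50 to 0.94), while Trp53, Bbc3, Sesn2 and Gdf15 are blue in both cKO_265 and Con_264.

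Other genes of the pathway were read from lists written from general knowledge. Of 43 other p53 targets, 0 passed (limma, adjusted p under 0.05), 5 were higher and 5 lower at an unadjusted p under 0.05 (against 6.81% and 7.82% of all tested genes), and the median log2 fold change was 0.06. Among the 12 growth arrest genes, Btg2, an antiproliferative p53 target, averaged 51.3 ± 7.64 FPKM in cKO and 74.0 ± 7.41 FPKM in Con (log2 fold change -0.52, adjusted p = 0.2005). Plk2, a polo-like kinase, averaged 37.6 ± 1.89 FPKM in cKO and 51.1 ± 3.21 FPKM in Con (-0.43, adjusted p = 0.201), and Ier3 was at -0.57 (adjusted p = 0.188). These 3 of the 12 had lower values in all cKO libraries than in any control, against 11.9% of all tested genes. This is the opposite side to Ccng1 and Cdkn1a. Gtse1, which binds p53 in G2 phase, averaged 45.7 ± 49.5 FPKM in cKO and 11.1 ± 1.17 FPKM in Con, with 103 FPKM in cKO_265 against 20.6 and 13.7 FPKM in the other two cKO libraries.

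Among the 13 other apoptosis targets, 3 were higher and 0 lower at an unadjusted p under 0.05 (limma), against 6.81% and 7.82% of all tested genes. Their median log2 fold change was 0.06, and it was -0.04 without cKO_262. The death receptor gene Fas averaged 117 ± 45.6 FPKM in cKO and 70.5 ± 1.76 FPKM in Con (log2 fold change 0.65, adjusted p = 0.275). The nuclease gene Aen averaged 23.8 ± 2.93 FPKM in cKO and 16.3 ± 2.85 FPKM in Con (0.53, adjusted p = 0.228), and the apoptosome gene Apaf1 13.8 ± 3.05 and 9.51 ± 0.930 FPKM (0.48, adjusted p = 0.3001). Fas and Aen were separated between the groups (2 of the 13, against 9.59% of all tested genes in that direction) and Apaf1 overlapped. Among the 18 targets of repair and metabolism, Polk, a translesion DNA polymerase, averaged 10.9 ± 2.58 FPKM in cKO and 5.21 ± 0.545 FPKM in Con (0.92, adjusted p = 0.125). The hydrolase gene Abhd4 averaged 10.2 ± 1.11 FPKM in cKO and 13.6 ± 1.06 FPKM in Con (-0.37, adjusted p = 0.304). Rrm2b, the p53-induced subunit of ribonucleotide reductase, averaged 2.05 ± 0.105 FPKM in cKO and 3.26 ± 0.956 FPKM in Con (-0.46, adjusted p = 0.335). Groups were separated with higher values in cKO for Polk (1 of the 18, against 9.59% of all tested genes). They were separated with lower values in cKO for Abhd4 and Rrm2b (2 of the 18, against 11.9%).

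Of the 18 listed regulators of p53, 0 passed, 3 were higher and 3 lower at an unadjusted p under 0.05 (limma, against 6.81% and 7.82% of all tested genes), and the median log2 fold change was 0.05. Rpl11, a ribosomal protein that binds and inhibits Mdm2, averaged 339 ± 69.0 FPKM in cKO and 212 ± 14.9 FPKM in Con (0.66, adjusted p = 0.169). The checkpoint kinase gene Chek2 averaged 19.8 ± 3.39 FPKM in cKO and 13.5 ± 1.72 FPKM in Con (0.51, adjusted p = 0.237). Lower values were found for Rchy1, a ubiquitin ligase of p53 (-0.78, adjusted p = 0.234), and for Crebbp, an acetyltransferase and coactivator of p53 (-0.47, adjusted p = 0.240). Both paralogs of p53 had lower values in every cKO library than in any control, as did 11.9% of all tested genes. Trp63, the factor of basal epithelium, averaged 10.6 ± 0.618 FPKM in cKO and 19.1 ± 2.92 FPKM in Con (-0.79, adjusted p = 0.118), and Trp73 was at -0.35 (adjusted p = 0.391).

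Genes that work with the targets were read as well. In the BCL-2 family (15 genes, median log2 fold change 0.02, 0 passed), Bcl2a1a, Bcl2a1b and Bcl2a1d were at 1.26, 1.27 and 1.23 (limma adjusted p = 0.165, 0.2002 and 0.173), and reads shared between these near-identical copies leave their values uncertain. The antiapoptotic gene Bcl2 averaged 6.27 ± 1.37 FPKM in cKO and 8.64 ± 0.762 FPKM in Con (-0.42, adjusted p = 0.347). Among the 7 other inhibitors of cyclin-dependent kinases (median -0.16, 0 passed), Cdkn1c, the p57 relative of p21, averaged 34.6 ± 14.5 FPKM in cKO and 84.6 ± 20.5 FPKM in Con (-1.31, adjusted p = 0.125), on the opposite side to Cdkn1a. Of the 16 tested genes of the proliferation list, 4 were higher and 0 lower at an unadjusted p under 0.05, against 6.81% and 7.82% of all tested genes (median 0.16, 0 passed), with the mitotic kinase gene Cdk1 at 43.0 ± 1.76 FPKM in cKO and 31.3 ± 0.856 FPKM in Con (0.45, adjusted p = 0.183) and the cyclin gene Ccnb2 at 71.0 ± 18.3 and 45.0 ± 1.80 FPKM (0.62, adjusted p = 0.2001).

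Stress programs that share targets with p53 gave no member past the threshold (limma). In the integrated stress response list (17 genes, median log2 fold change -0.09), Atf3 averaged 196 ± 27.7 FPKM in cKO and 282 ± 11.02 FPKM in Con (-0.53, adjusted p = 0.177). In the oxidative stress list (9 genes, median 0.03), the sestrin gene Sesn3 was at -0.63 (adjusted p = 0.167) and the heme oxygenase gene Hmox1 at -0.49 (adjusted p = 0.223). On the other side, the sulfiredoxin gene Srxn1 averaged 95.5 ± 8.68 FPKM in cKO and 71.2 ± 4.24 FPKM in Con (0.42, adjusted p = 0.223). Groups were separated with lower values in cKO for Sesn3 and Hmox1 (2 of the 9, against 11.9% of all tested genes). They were separated with higher values in cKO for Srxn1 (1 of the 9, against 9.59%). In the immediate early and heat shock list (11 genes, median -0.05), whose transcripts respond to tissue dissociation, Egr1 averaged 171 ± 33.7 FPKM in cKO and 237 ± 31.4 FPKM in Con (-0.47, adjusted p = 0.272).

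**Figure D4:**
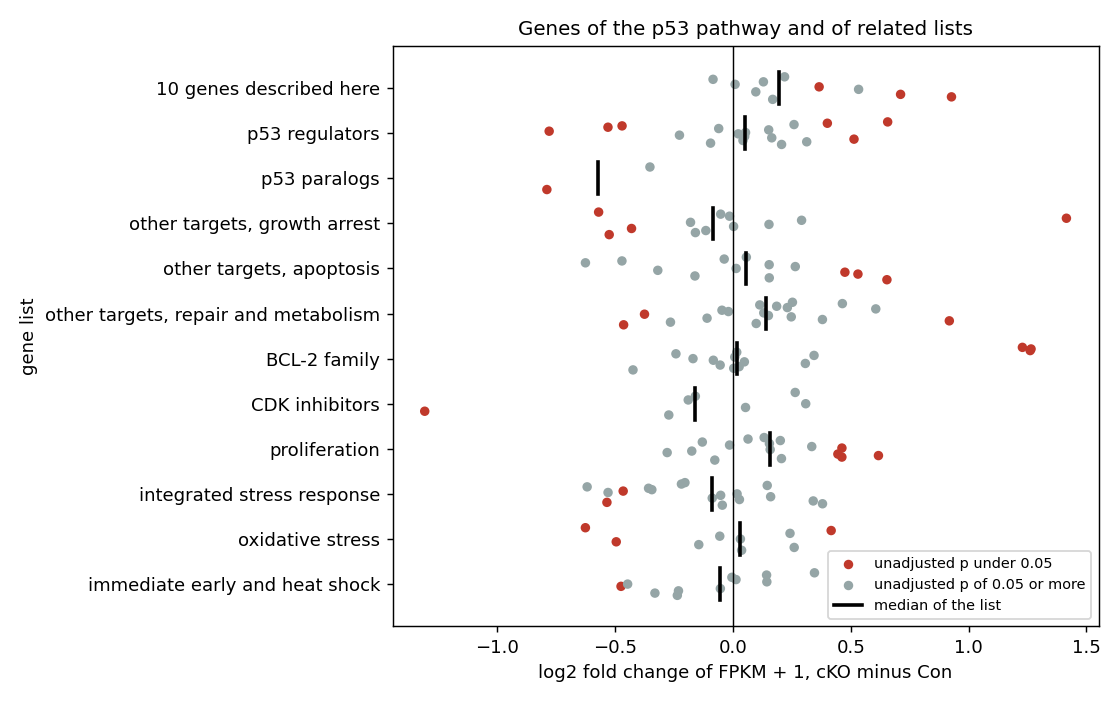
Log2 fold change of FPKM + 1 (horizontal axis, cKO minus Con) of each tested gene of the 10 described here and of 11 related lists, in red at an unadjusted limma p under 0.05 and in grey otherwise, with the list's median as a black bar. The median of the 10 genes is at 0.19, that of the p53 paralogs (2 genes) at -0.57, and other p53 targets lie on both sides of 0.

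Summed markers of some other cell types were lower in cKO. The 12 thymocyte markers summed to 30.7 to 40.1 FPKM in cKO and 43.8 to 71.7 FPKM in Con. Of the 9 tested, 5 (among them Cd3e, at -1.06) were lower in cKO at an unadjusted p under 0.05 (limma), against 7.82% of all tested genes. The 10 macrophage and dendritic markers summed to 286 to 328 FPKM in cKO and 377 to 436 FPKM in Con. Lyz2 made up most of that sum, and the 9 markers without it summed to 43.4 to 52.6 FPKM in cKO and 48.3 to 73.6 FPKM in Con, which overlap. The 5 endothelial markers summed to 4.77 to 5.27 FPKM in cKO and 7.17 to 7.52 FPKM in Con. Sums overlapped between cKO and Con for B-cell markers (40.8 to 56.0 and 38.8 to 51.7 FPKM), fibroblast markers (27.0 to 32.7 and 29.5 to 37.7 FPKM) and cortical epithelial markers (356 to 531 and 318 to 408 FPKM). None of these markers was listed at 0 in all 6 libraries. In these bulk samples fewer cells of a type and less RNA per cell cannot be told apart, and the part of such cells in the differences of Ccng1, Cdkn1a and Trp53inp1 was not tested.

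Over the 6 libraries, the genes of at least 5 FPKM whose log2(FPKM + 1) values were most like those of Cdkn1a were Kansl3, Glt25d1 and Fam189a2, with Pearson r of 0.993, 0.985 and 0.983 as a description of 6 libraries, chosen as the highest of 8922 genes. Pearson r compares the pattern over libraries and not its size. The log2 fold change was 0.14 for Kansl3, 0.33 for Glt25d1 and 0.40 for Fam189a2, against 0.71 for Cdkn1a. Fam189a2 was at 40.5, 33.9 and 33.8 FPKM in libraries cKO_262, cKO_263 and cKO_265, against 30.9, 27.4 and 23.0 FPKM in libraries Con_253, Con_261 and Con_264. Those most like Trp53 were Nfkb2, Pard6b and Rnf181 (r of 0.990, 0.989 and 0.989). Nfkb2, a subunit of the noncanonical NF-kB pathway, was at 273, 234 and 193 FPKM in the 3 cKO libraries, against 229, 216 and 176 FPKM in the 3 controls, so that cKO_265 and Con_264 were again the lowest of their groups.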

How the data were processed

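RNA of sorted mTECs was amplified with a whole-transcriptome kit before Illumina libraries were made, per the labels' protocols, and such amplification is not even across transcripts. FPKM tables, 1 per library, were deposited by the authors and had been made with Bowtie2 2.2.5 and Cufflinks on mm10, per the submitters' processing notes. The file headers name the column only as expression, and FPKM is the unit Cufflinks gives. Annotation, strandedness, scaling and the handling of shared reads are not given in the sources used here. Starts of genes were raised by 1 base, since 9033 of 18853 symbols began 1 base before the RefSeq start and 644 at it.

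Rows of a symbol were summed, after 44 rows with symbols turned into dates were left out. A mean over the 6 libraries of 0.5 FPKM or more was required. The test was limma 3.58.1 (R 4.3.3, eBayes with trend) on log2(FPKM + 1), checked on simulated data. The added 1 understates differences of low genes. Intervals are 95% intervals of that fit. Older symbols were matched through RefSeq synonyms.

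The 10 genes and all lists were chosen with earlier results of these data known. All 10 genes are named, with at most 4 genes of each list by smallest p, the 3 genes most like Cdkn1a and Trp53, and 4 others (Kdm6b, Psrc1, Ephx1 and Eif2s3y, the last chosen after its values were seen). Alternatives changed the pseudocount (0.1), the filter (none, or a mean of 5 FPKM or more), the scaling (quantile normalization or median centring), the weights (arrayWeights) and the libraries (each left out in turn, and both Con_253 and cKO_265 left out).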

Additional observations from a re-analysis of the deposited data

How the results depend on the processing

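No paired analysis was possible because the groups share no replicate numbers. The number of changed genes was 12, and it was 4 without a filter, 3025 with array weights and 2 to 23 with 1 library left out. Of the 10 genes 0 passed in every alternative except array weights, where 4 did. Their median log2 fold change of 0.19 was 0.058 under quantile normalization, 0.28 under median centring and 0.13 with array weights. It was 0.53 without both Con_253 and cKO_265 and 0.10 to 0.39 with 1 library left out. Ccng1, Cdkn1a, Bax and Trp53inp1 were positive in all alternatives run. Under quantile normalization Trp53 was at -0.077, Mdm2 at -0.027 and Sesn2 at -0.072. Mdm2 was also at -0.014 with array weights and -0.065 without both Con_253 and cKO_265. With 1 library left out, differences ranged from -0.024 to 0.19 for Mdm2, -0.0901 to 0.19 for Sesn2, -0.22 to 0.41 for Bbc3, -0.16 to 0.055 for Pmaip1 and -0.20 to 0.50 for Gdf15.

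Of the list medians, that of the p53 regulators was 0.13 under median centring and 0.046 to 0.14 with 1 library left out. That of the paralogs was -0.77 with a pseudocount of 0.1, -0.79 among genes of at least 5 FPKM, where 1 of the 2 remained, and -0.49 under median centring. Growth arrest targets ranged from -0.22 to 0.0034 with 1 library left out. Without both Con_253 and cKO_265 the repair and metabolism median was 0.33, that of the BCL-2 family 0.13 and that of oxidative stress -0.17. Under quantile normalization the integrated stress response was at -0.23, oxidative stress at -0.086 and the immediate early and heat shock list at -0.41. With 1 library left out, the integrated stress response ranged from -0.22 to -0.0072 and oxidative stress from -0.10 to 0.10. The causes were not tested. The unknown depth means that counting errors cannot be given.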

Other observations

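Psrc1 and Ephx1, both cited as induced by p53 in mouse cells, are not among the 10 genes and were chosen with their values known. Psrc1, a microtubule-associated protein of the spindle, was at 65.1, 48.6 and 60.3 FPKM in libraries cKO_262, cKO_263 and cKO_265, against 23.0, 20.02 and 16.8 FPKM in libraries Con_253, Con_261 and Con_264, and it passed the threshold (log2 fold change 1.49, SE 0.17, limma adjusted p = 0.0249). Ephx1, an epoxide hydrolase, was at 49.8, 47.9 and 55.02 FPKM in the cKO libraries, against 30.1, 27.4 and 25.7 FPKM in the controls (0.85, SE 0.14), and it did not pass (adjusted p = 0.0889). The groups of both genes were separated, but with the choice made on known values this does not describe p53 targets as a set. Among the 43 other p53 targets, groups were separated with higher values in cKO for 4, against 9.59% of all tested genes. They were separated with lower values in cKO for 5, against 11.9% of all tested genes. Both counts were thus near the shares over all tested genes.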
